A study of Homo sapiens with 2 samples.

Results

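The 39 genes described here encode the RAS-ERK signaling cascade, the ETS and SRF transcription factors at its nuclear end, and proteins that restrain it. They were listed by gene symbol, with earlier results of these data known, and every probe set (the group of short oligonucleotides with which the array measures 1 transcript) carrying 1 of these symbols alone was used. Of the 39 genes, 36 had such a probe set in the platform annotation, with 72 probe sets among the 19065 probe sets that carry 1 symbol and cover 11963 genes. The other 3 genes were not analysed here. RNA came from L-428, an established Hodgkin's lymphoma (HL) cell line, and was hybridized with 2 Affymetrix human expression arrays. For the first array the cells had been transfected with pcDNA6.2-GW/EmGFP-miR-DUSP5, a plasmid that expresses an artificial microRNA against DUSP5 together with a green fluorescent protein. For the other array they had received pcDNA6.2-GW/EmGFP-miR-neg, the control vector, which the study calls empty. Both populations thus carried the same plasmid backbone. Time after transfection and the share of transfected cells are not given in the sources used here. Because each condition has 1 array, replicates are lacking for every difference, and no p-values are given.

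Growth factor and cytokine receptors activate RAS through adaptor proteins and the exchange factors SOS1 and SOS2. Active RAS recruits RAF kinases, which phosphorylate MEK, which phosphorylates ERK. ERK then activates the RSK and MNK kinases and, in the nucleus, ETS factors such as ELK1 that bind DNA together with SRF. Sprouty and SPRED proteins, RAS GTPase activating proteins and dual-specificity phosphatases such as DUSP5, which inactivates ERK in the nucleus, limit the signal. In HL cells the pathway is known to be active downstream of several receptors.

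Values are signal intensities, scaled by the authors to a target intensity of 500 on each array. The log2 ratio is that of the knock-down array over the control array, so a negative value means a lower signal after knock-down. A gene was counted as measured when the mean of its signals on the 2 arrays was at least 200 at its brightest probe set, and this probe set stood for the gene in counts and medians. As the error of a ratio, the standard deviation (SD) of log2 ratios among different probe sets for 1 gene is given, taken over all genes at a similar signal. It was 0.42 at mean signals of 200 to 500, 0.36 at 500 to 1000, 0.30 at 1000 to 3000 and 0.26 above 3000, but 0.74 at 100 to 200 and 1.2 below 100. This SD covers probe error within the 2 arrays and not the spread between cultures.

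DUSP5, the targeted gene, had a signal of 368 on the knock-down array and 628 on the control array, or 58.6% of control (log2 ratio -0.77, SD 0.42). The 20 measured genes nearest to DUSP5 on chromosome 10 had a median ratio of -0.28, and 5 of them were at least 1.5-fold lower and 1 higher. Of 10 markers of Hodgkin cells, 9 were measured, and 2 of these had ratios below 0. TNFRSF8 (CD30) had the highest ratio, with signals of 3618 after knock-down and 1724 in control cells (1.07). CD83 had the lowest, with 2529 and 3713 (-0.55). The summed signal of the 10 markers was 44358 after knock-down and 34524 in control cells. Of 7 B cell markers with a probe set only PAX5 was measured (211 and 268; summed signal of the list 754 and 770), as is known for HL cells that have lost much of the B cell program. None of 7 markers of T and NK cells and none of 7 myeloid markers reached a mean signal of 200, and their summed signals were 598 and 372 for T and NK cells, and 406 and 334 for myeloid cells, with the knock-down array given first. Of 9 epithelial and stromal markers (summed signal 980 and 1350), 3 were measured. At their brightest probe sets the adhesion gene CDH1 gave 55.3 after knock-down and 467 in control cells, whereas the matrix genes DCN (268 and 191) and COL1A1 (221 and 213) were not lower.

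Of the 36 genes, 29 were measured. After knock-down 10 of them were lower and 2 were higher by a factor of 1.5 or more. Thus 6.90% of the members were higher and 34.5% lower, against 15.6% and 19.0% of all 6301 measured genes. The median log2 ratio was -0.11 for the members and 0.01 for all measured genes. A ratio larger than the SD between probe sets was found upward for 3 and downward for 13 of the 29 members, and 13 lay within it. These were 10.3% upward and 44.8% downward of the members, against 26.9% and 28.8% of all measured genes. Counted by probe sets at a mean signal of at least 200, 2 of 46 were at least 1.5-fold higher and 12 were lower. The shares over all such probe sets of the arrays were 15.9% and 18.8%. The lower genes were the RAS activator SOS2 and the docking protein GAB2, the kinase ARAF and the scaffold KSR1, the kinase RPS6KA3, the transcription factors ELK1 and ELK3, and the inhibitors PHLDA1, PEBP1 and SPRY2. The higher genes were HRAS and RPS6KA1. Of the lower genes, ELK1 (99.3), ELK3 (153) and KSR1 (197) had signals under 200 on the knock-down array. They were counted as measured only through their control signals (576, 252 and 312). SPRY4, which lay between the limits, passed only through its knock-down signal (257, against 183 in control cells). The same filter on the mean signal was used for all genes. On a scale relative to GAPDH, which was itself higher after knock-down (median log2 ratio 0.98 over its 3 probe sets), every ratio is lower by that amount, and neither HRAS (-0.39) nor RPS6KA1 (-0.24) is then higher. With ratios centred on the median of all probe sets, 1 member was higher and 11 were lower, and 11% of all measured genes were higher and 24.1% lower.

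**Figure D1:**
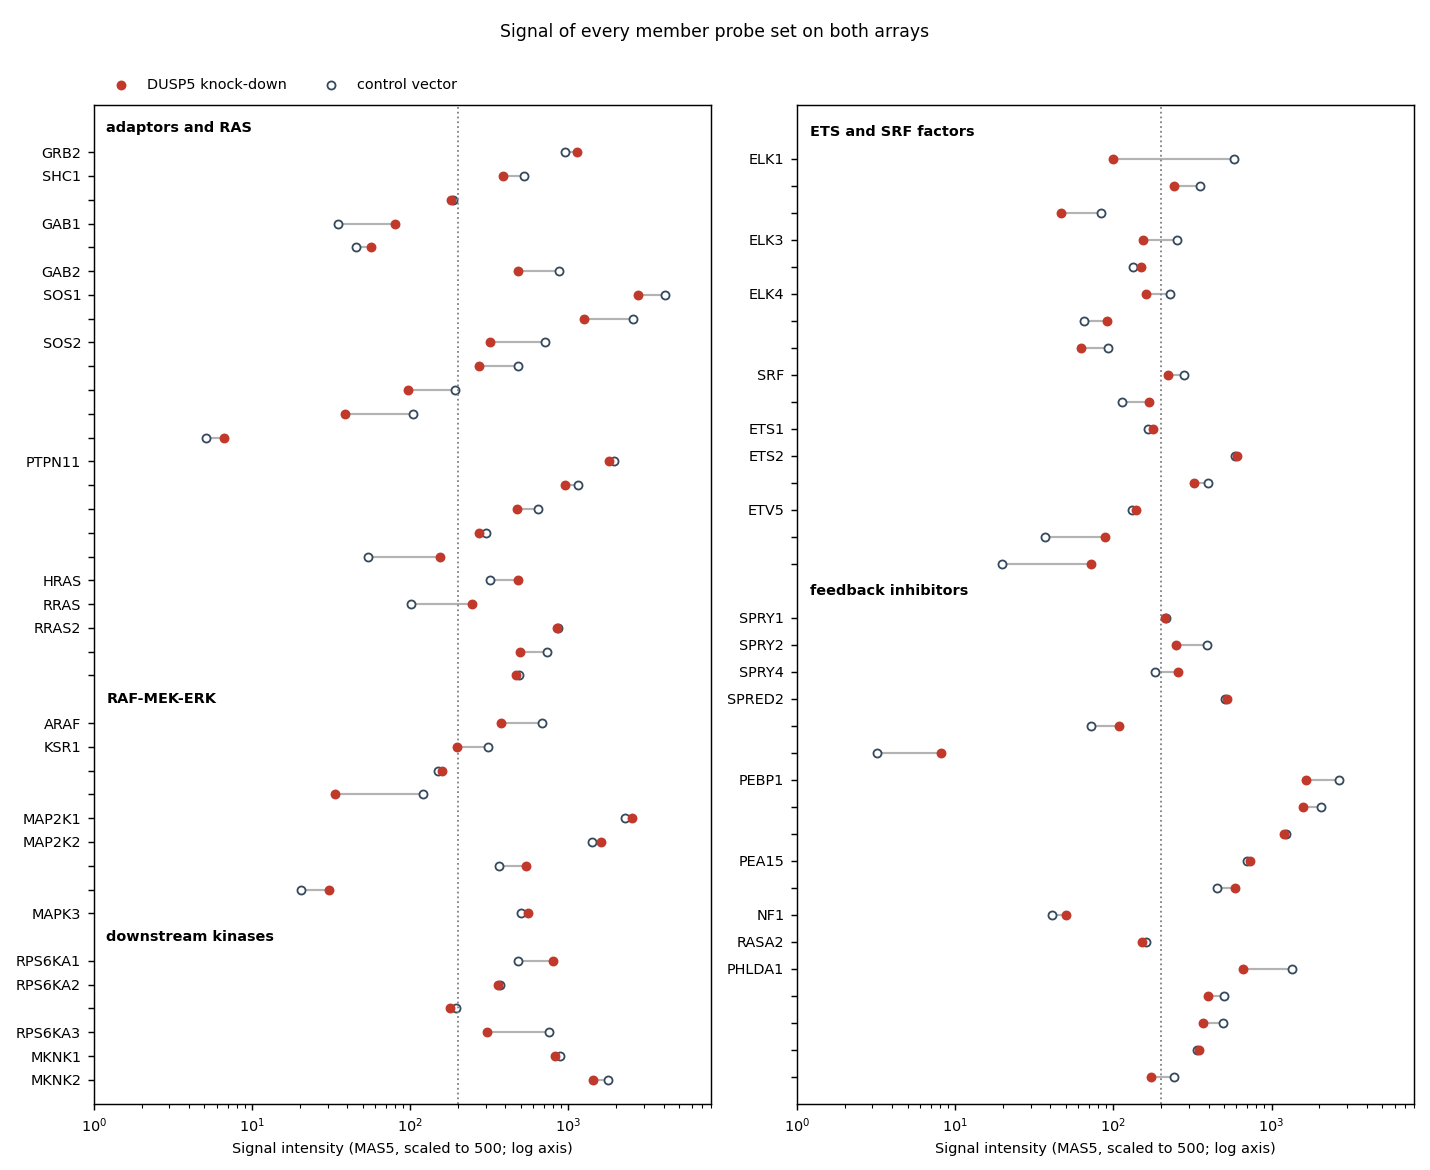
Signal intensity (horizontal log axis, scaled to a target of 500) of all 72 member probe sets on the knock-down array (filled points) and on the control array (open points), with a line joining the 2 values of a probe set and the dotted line at 200. Rows without a name are further probe sets of the gene above, in order of mean signal. Of the probe sets whose mean signal reached 200, that of ELK1 shows the widest gap, 99.3 after knock-down and 576 in control cells.

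Promoter sequences are shown for the measured members that carry a core ETS binding motif, because ETS factors and SRF are themselves members. The windows, from RefSeq on build GRCh38.p14, run from 250 bases before to 50 bases after a gene start, and 30 of the 36 genes had one, 28 of them measured. The motif CCGGAA (or TTCCGG on the other strand) was found in 6 of these 28 windows. The group comprised 3 of 10 windows of lower genes, 2 of 16 of genes between the limits and 1 of 2 of higher genes, and with the dim genes ELK4 and NF1 the motif occurred in 8 of 30 windows (26.7%), against 17.2% of all 35116 promoter windows. The CArG box, to which SRF binds, was searched on both strands as well, did not overlap the ETS motif in the windows shown, and was found in 3 of 30 member windows (SRF, MKNK2 and RPS6KA2), against 1.29% of all windows. None of these 3 genes was at least 1.5-fold higher or lower. The 35116 windows are not limited to genes measured here, and the shares among windows of measured genes alone are not given. A match is a description of the letters and not a binding site. In the sequences below, written 5′ to 3′ on the strand of the gene, capitals mark the ETS motif and, in SRF, also 2 CArG boxes.
PHLDA1 (chr12:76031727-76032026, strand -): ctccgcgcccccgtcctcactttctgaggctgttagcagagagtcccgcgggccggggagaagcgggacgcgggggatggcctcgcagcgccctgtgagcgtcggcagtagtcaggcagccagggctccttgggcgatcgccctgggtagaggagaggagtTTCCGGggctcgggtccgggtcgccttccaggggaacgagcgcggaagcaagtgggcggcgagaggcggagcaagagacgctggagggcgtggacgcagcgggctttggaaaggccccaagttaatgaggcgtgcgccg
ARAF (chrX:47560955-47561254, strand +): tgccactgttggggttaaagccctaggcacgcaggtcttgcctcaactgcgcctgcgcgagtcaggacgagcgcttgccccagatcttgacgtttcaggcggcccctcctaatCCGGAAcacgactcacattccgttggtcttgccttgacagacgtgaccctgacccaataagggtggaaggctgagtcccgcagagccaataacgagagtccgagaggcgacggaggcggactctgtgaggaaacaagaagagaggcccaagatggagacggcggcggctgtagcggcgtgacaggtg
SPRY2 (chr13:80341077-80341376, strand -): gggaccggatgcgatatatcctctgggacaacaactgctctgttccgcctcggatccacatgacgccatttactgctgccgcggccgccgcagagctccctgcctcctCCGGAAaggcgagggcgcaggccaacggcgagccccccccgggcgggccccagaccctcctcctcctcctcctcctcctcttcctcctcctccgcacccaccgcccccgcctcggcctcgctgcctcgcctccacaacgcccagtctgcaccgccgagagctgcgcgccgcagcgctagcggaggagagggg
SHC1 (chr1:154974327-154974626, strand -): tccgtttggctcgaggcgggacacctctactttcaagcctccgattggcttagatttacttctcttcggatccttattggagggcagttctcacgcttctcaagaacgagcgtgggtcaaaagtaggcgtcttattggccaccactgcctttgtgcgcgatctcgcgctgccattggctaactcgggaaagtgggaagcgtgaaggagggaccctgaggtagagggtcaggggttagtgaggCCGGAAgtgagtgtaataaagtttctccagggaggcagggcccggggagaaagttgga
SRF (chr6:43171019-43171318, strand +): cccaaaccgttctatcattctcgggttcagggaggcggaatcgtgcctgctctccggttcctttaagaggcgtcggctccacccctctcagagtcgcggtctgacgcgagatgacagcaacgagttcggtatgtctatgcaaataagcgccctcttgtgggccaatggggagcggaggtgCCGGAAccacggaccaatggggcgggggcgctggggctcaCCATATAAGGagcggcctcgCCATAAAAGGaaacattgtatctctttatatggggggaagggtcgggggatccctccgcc
HRAS (chr11:535527-535826, strand -): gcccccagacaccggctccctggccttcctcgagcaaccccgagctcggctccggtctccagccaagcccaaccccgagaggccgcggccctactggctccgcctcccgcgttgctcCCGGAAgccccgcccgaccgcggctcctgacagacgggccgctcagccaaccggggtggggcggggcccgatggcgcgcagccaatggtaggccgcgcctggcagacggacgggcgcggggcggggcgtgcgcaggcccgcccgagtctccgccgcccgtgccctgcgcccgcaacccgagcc

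Of these 6 genes, PHLDA1 (log2 ratio -1.02), ARAF (-0.86) and SPRY2 (-0.66) were at least 1.5-fold lower, SHC1 (-0.45) and SRF (-0.35) lay between, and HRAS (0.59) was just above the limit for higher genes. The promoters of SOS1, SOS2, ELK1, RPS6KA3 and RPS6KA1, with the ratios given below, held neither motif in the windows searched.

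Among adaptors, exchange factors and RAS proteins, both SOS genes had lower signals after knock-down, whereas HRAS was higher. SOS2 had signals of 319 after knock-down and 710 in control cells at its brightest probe set, a log2 ratio of -1.15 (SD 0.36). Its second measured probe set gave 270 and 478 (-0.82), and 2 dimmer ones gave -0.99 and -1.44. Only the dimmest, with signals under 10 on both arrays, went the other way (0.38, SD 1.2). SOS1 had signals of 2759 after knock-down and 4073 in control cells (-0.56, SD 0.26), which fell just short of the 1.5-fold limit, and 1256 and 2576 at its other probe set (-1.04, SD 0.30). Thus 6 of 7 SOS probe sets were lower, by more than the SD in all 4 measured ones. GAB2, a docking protein downstream of receptors, gave 478 after knock-down and 871 in control cells (-0.86, SD 0.36) at its only probe set. Its relative GAB1 was not measured, with signals of at most 80.4 on the knock-down array and 45.7 on the control array.

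The other adaptors differed less. GRB2, which brings SOS to receptors, had signals of 1132 after knock-down and 954 in control cells (0.25, SD 0.30). SHC1 gave 385 and 527 (-0.45, SD 0.42) at its measured probe set and 182 and 185 at the other. PTPN11, the phosphatase SHP2, which is needed for full RAS activation, was lower at all 4 measured probe sets with ratios of -0.45 to -0.11, and only the ratio of -0.45 exceeded its SD (0.36). Its dimmest probe set gave 153 after knock-down and 54.1 in control cells (1.5, SD 0.74).

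HRAS had signals of 481 after knock-down and 320 in control cells (0.59, SD 0.42), right at the 1.5-fold limit. RRAS, a RAS relative, gave 246 and 101 (1.29, SD 0.74) at its only probe set, but was not counted because its mean signal was 174. RRAS2, measured by 3 probe sets, gave -0.03, -0.56 and -0.05, so that 1 of 3 exceeded its SD. In all, 8 genes of this role were measured, with a median ratio of -0.28, 1 higher (12.5%) and 2 lower (25%). Over all measured genes 15.6% were higher and 19.0% lower, and the same shares stand beside the counts of the roles that follow.

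In the RAF-MEK-ERK core, ARAF and KSR1 were lower and the MEK and ERK genes stayed close to control. ARAF had signals of 373 after knock-down and 677 in control cells (-0.86, SD 0.36) at its only probe set. KSR1, a scaffold that holds RAF, MEK and ERK together, gave 197 and 312 (-0.66, SD 0.42) at its measured probe set. Its dimmer ones gave 0.09 and -1.84, so the 3 probe sets did not go the same way. MAP2K1 (MEK1) had signals of 2520 after knock-down and 2263 in control cells (0.15, SD 0.30). MAP2K2 (MEK2) gave 1602 and 1411 (0.18, SD 0.30), and 541 and 365 (0.57, SD 0.42) at its second measured probe set, where the ratio exceeded the SD. Its dimmest probe set gave 30.8 and 20.3 (0.60, SD 1.2). MAPK3 (ERK1) gave 553 and 502 (0.14, SD 0.36). The differences of MAP2K1 and MAPK3 were thus within the SD between probe sets. The 5 measured genes had a median of 0.14, with 2 lower and none higher, whereas 4 were left, with a median of -0.25, once the _s_at and _x_at types (probes shared by several transcripts) had been removed.

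The downstream kinases split within the RSK family. RPS6KA1 (RSK1) had signals of 800 after knock-down and 480 in control cells (0.74, SD 0.36). RPS6KA3 (RSK2) went the other way with 304 and 753 (-1.31, SD 0.36). RPS6KA2 (RSK3) lay in between, with 361 and 369 (-0.03) and, at a dimmer probe set, 180 and 195 (-0.12). The difference between RPS6KA1 and RPS6KA3 was far wider than the SD of either, but each had a single probe set. MKNK1, which phosphorylates the translation factor eIF4E, gave 817 after knock-down and 879 in control cells (-0.10, SD 0.36), and its relative MKNK2 gave 1440 and 1789 (-0.31, SD 0.30). The median of the 5 genes was -0.10.

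**Figure D2:**
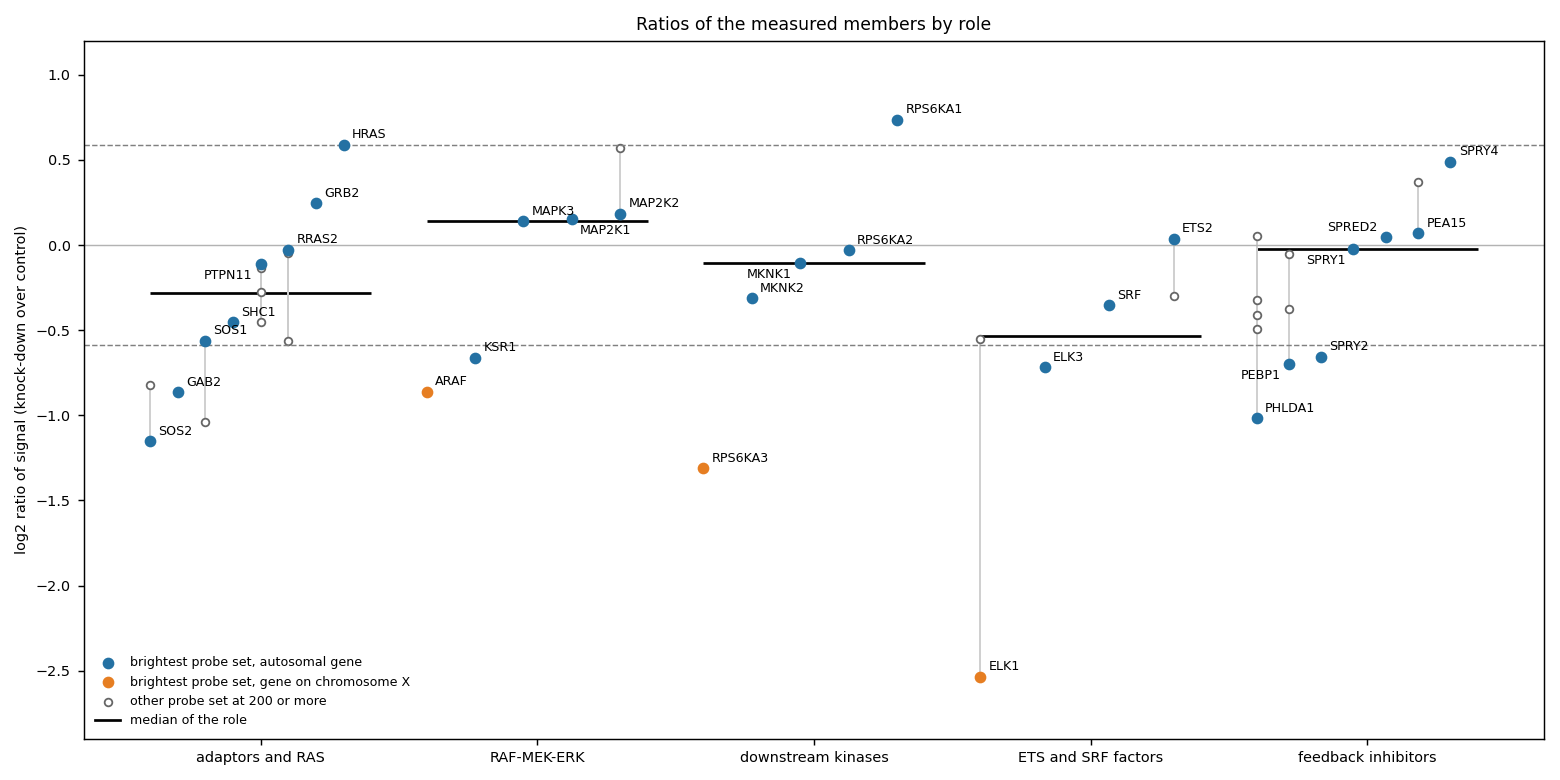
The 29 measured genes by role, with the log2 ratio of knock-down over control on the vertical axis. Filled points are the brightest probe set of a gene (orange for genes on chromosome X), open points its other probe sets at a mean signal of at least 200, black bars the medians of the roles and dashed lines a 1.5-fold difference. RPS6KA1 lies above and HRAS just on the upper dashed line, and all 3 genes on chromosome X lie below the lower one.

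Of the ETS and SRF factors, only 4 of 7 genes were measured, and ELK1 had the lowest ratio of all members. ELK1 had signals of 99.3 after knock-down and 576 in control cells at its brightest probe set (-2.54, SD 0.42), or 17.2% of control. This SD belongs to the mean signal of 338, whereas the knock-down signal alone was under 100. At mean signals below 100 the SD was 1.2. The second probe set of ELK1 gave 241 and 352 (-0.55, SD 0.42), or 68.3%. The third, at 46.5 and 84.1, gave -0.85 (SD 1.2). All 3 probe sets were thus lower, but the 2 measured ones differed by 1.99 on the log2 scale, and both are of the type _x_at. ELK3, a related factor that represses in the absence of ERK activity, had 153 and 252 (-0.72, SD 0.42) at a mean signal of 202, just above the filter, and 149 and 133 (0.17) at its dimmer probe set. ELK4, the remaining member of this subfamily, was just below the filter (mean signal 195) with 162 and 228 (-0.49, SD 0.74), and its dimmer probe sets gave 0.47 and -0.57. SRF gave 220 after knock-down and 281 in control cells (-0.35, SD 0.42), and 169 and 114 at its dimmer probe set (0.57, SD 0.74). ETS2, itself activated by ERK, gave 605 and 590 (0.036) and 323 and 397 (-0.30), both within the SD. ETS1 (178 and 166) and ETV5 were too dim to be measured. The 3 ETV5 probe sets had ratios of 0.08, 1.26 and 1.87, with the high ratios at signals under 100. The median of the 4 measured genes was -0.53, with 2 lower and none higher. Both lower genes, ELK1 and ELK3, had signals under 200 on the knock-down array and passed the filter through the control array.

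Among the inhibitors, PHLDA1, PEBP1 and SPRY2 were lower and none was at least 1.5-fold higher. PHLDA1, whose transcription is known to follow ERK activity, had 5 measured probe sets. The brightest gave 661 after knock-down and 1338 in control cells (-1.02, SD 0.36), whereas the others gave -0.32, -0.41, 0.05 and -0.49. Only the ratios of -1.02 and -0.49 exceeded their SD. PEBP1, which binds RAF and blocks MEK activation, gave 1654 and 2680 (-0.70), 1575 and 2045 (-0.38), and 1197 and 1241 (-0.05), with an SD of 0.30 at each. Thus 2 of its 3 probe sets were lower by more than the SD.

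The Sprouty genes, which ERK induces and which block RAS activation, did not share a direction. SPRY2 had signals of 249 after knock-down and 393 in control cells (-0.66, SD 0.42). SPRY4 gave 257 and 183 (0.49, SD 0.42), and SPRY1 gave 213 and 216 (-0.02), each at a single probe set. SPRED2, which acts with NF1 on RAS, gave 523 and 506 (0.05, SD 0.36), and its dimmer probe sets gave 109 and 72.0 (0.60, SD 1.2) and 8.17 and 3.20 (1.35, SD 1.2). PEA15, which keeps ERK in the cytoplasm, gave 731 and 697 (0.07) and 586 and 454 (0.37, SD 0.36). The RAS GTPase activating genes NF1 (50.1 and 40.7) and RASA2 (152 and 161) were too dim to be measured. The 7 measured inhibitors had a median of -0.02.

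For 10 members at least 2 probe sets were measured, and in 8 of them (80.0%) these all pointed the same way, as they did in 68.2% of 1897 such genes on the arrays. The exceptions were ETS2 and PHLDA1. For MAP2K2 and PEA15 the common direction was upward and for SOS1, SOS2, PTPN11, RRAS2, ELK1 and PEBP1 it was downward. At low signal the balance was different. Of 26 member probe sets with a mean signal under 200, 8 were at least 1.5-fold higher and 4 lower, with a median of 0.23. Over all 12031 such probe sets of the arrays 34.9% were higher and 19.0% lower, with a median of 0.28, so an excess of higher values at low signal was present over all probe sets too. The 7 genes left uncounted for their low signal were GAB1, RRAS, ELK4, ETS1, ETV5, NF1 and RASA2.

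**Figure D3:**
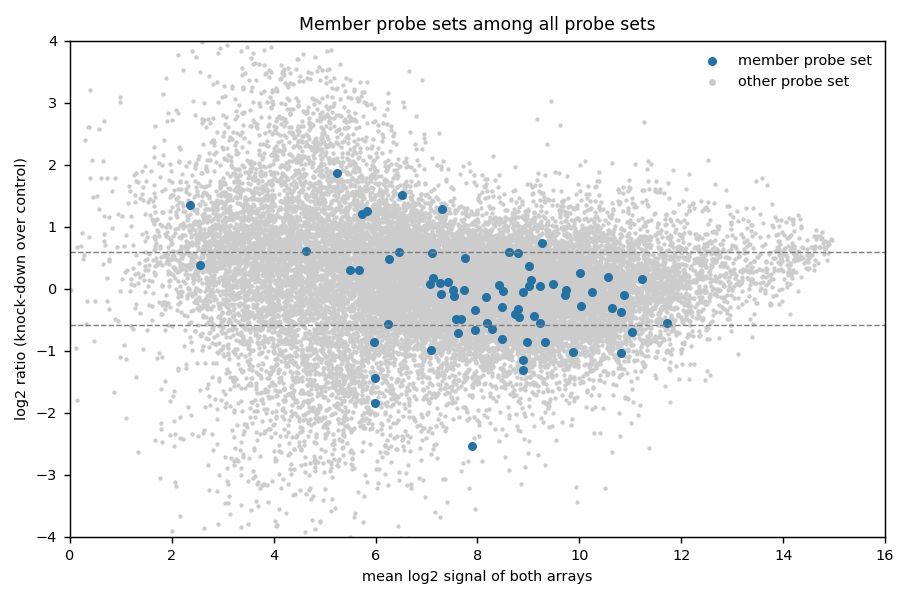
Each of 22215 probe sets (grey, 63 outside the axes) by its mean log2 signal on the 2 arrays (horizontal) and its log2 ratio of knock-down over control (vertical). Blue points are the 72 member probe sets and dashed lines mark a 1.5-fold difference. At low signal the points spread widely and lie more often above 0, whereas right of the middle more member points lie below the lower line than above the upper one.

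The lower members lay on several chromosomes, among them X, 12 and 14, as placed by the RefSeq annotation of GRCh38.p14. All 3 measured members on chromosome X (ELK1, RPS6KA3 and ARAF) were at least 1.5-fold lower, and SOS2, with a ratio below that of all members but ELK1 and RPS6KA3, is on chromosome 14. These 2 chromosomes also had the lowest median ratios of 23, at -0.37 for 227 measured genes of chromosome 14 and -0.27 for 219 of chromosome X, with chromosome 8 (-0.26) and chromosome 10 (-0.22) close to them. On chromosome X 37.4% of measured genes were at least 1.5-fold lower and 14.2% higher, and on chromosome 14 34.8% were lower and 7.49% higher. Members on other chromosomes numbered 25, with 6 lower (24%) and 2 higher (8%), against 17.7% lower and 15.9% higher of 5855 measured genes there. Of these 25, PHLDA1, PEBP1 and ELK3, all lower, and PTPN11 (-0.11) are on chromosome 12. The 375 measured genes of chromosome 12 had a median of 0.02, with 19.7% lower and 18.1% higher.

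Within chromosomes X and 14 the lower genes lay together. Of the first 100 measured genes of chromosome X by position, which include RPS6KA3, ARAF and ELK1, 60 were at least 1.5-fold lower and 4 higher, with a median of -0.70. Of the other 119 genes 22 were lower and 27 higher, with a median of 0.11. Of the first 140 measured genes of chromosome 14, which include SOS2, 65 were lower and 4 higher (median -0.52), against 14 lower and 13 higher of the other 87 (median 0.03). These limits were set after the values had been seen. The 20 measured genes nearest to ARAF had a median of -0.76, 14 of them lower and none higher, so that the ratio of ARAF (-0.86) was close to that of its surroundings. The ubiquitin protease USP11 (-0.71), next to ARAF, and the chaperone UXT (-0.62), next to ELK1, were lower too, whereas TIMP1 between ARAF and ELK1 was not (-0.09). The same count holds for ELK1, whose ratio of -2.54 lay well below the median of its surroundings, while its second probe set (-0.55) did not. Around RPS6KA3 the median was -0.66, with 10 of 20 genes lower and none higher, and around SOS2 it was -0.49, with 9 of 20 lower and none higher.

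Relative to the median of these neighbours, ARAF differed by -0.10, RPS6KA3 by -0.65, SOS2 by -0.66 and ELK1 by -1.78. On this scale 10 members were still at least 1.5-fold lower, 9 of them the same genes, with ARAF lost and MKNK2 (-0.76) gained, and only RPS6KA1 (0.60) was that much higher. Of 6299 measured genes 16.5% were lower and 15.5% higher on this scale, against 34.5% and 3.45% of the members. The medians around the other lower genes lay closer to 0, at 0.15 for GAB2, -0.04 for ELK3, -0.02 for PEBP1, 0.09 for KSR1, -0.06 for SPRY2 and -0.25 for PHLDA1. The part of the chromosomal position in the ratios of the members was not tested, and the knock-down and a difference between the 2 cultures cannot be told apart.

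**Figure D4:**
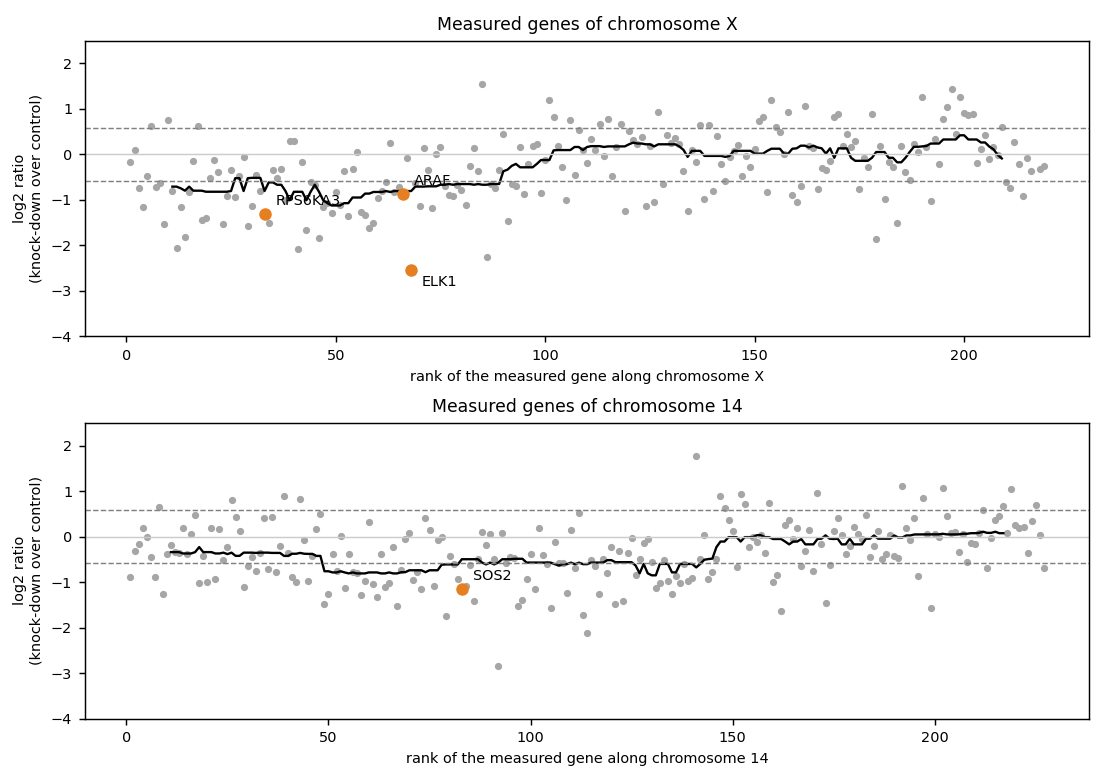
Log2 ratio (knock-down over control) of the measured genes of chromosome X (top, 219 genes, 1 outside the axis) and chromosome 14 (bottom, 227 genes), by their rank along the chromosome. The black line is the running median of 21 genes, dashed lines mark a 1.5-fold difference, and orange points are the members. All 4 members lie in the stretch where the running median is below 0, with medians of -0.70 for the first 100 genes of X and -0.52 for the first 140 of chromosome 14.

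Further genes of the pathway, from lists that do not overlap with the members, are given for comparison. Of 26 other RAS-ERK pathway genes listed, 18 had a probe set and 8 were measured. Of the 8, 1 was at least 1.5-fold higher (12.5%) and 3 were lower (37.5%), with a median of -0.30. Over all measured genes 15.6% were higher and 19.0% lower. SHOC2, a scaffold for RAS and RAF, was lowest with signals of 611 after knock-down and 1387 in control cells (-1.18), followed by the MEK scaffold LAMTOR3 with 490 and 842 (-0.78). The kinase RPS6KA4 (MSK2) with 574 and 359 (0.67) and LAMTOR2 with 564 and 413 (0.45) were highest. The median ratio of the nearest measured genes was 0.70 for RPS6KA4, so that its ratio was close to that of its surroundings. It was 0.07 for LAMTOR2, -0.35 for SHOC2 and 0.01 for LAMTOR3. Of 14 other ETS factors, 8 were measured, with 1 higher (12.5%), 1 lower (12.5%) and a median of 0.18. ELF1 was lowest (-1.59, 140 and 421 at its brightest probe set) and ETV7 highest (0.68, 280 and 174), with SPIB (-0.28) and ETV6 (0.24) next to them. Of 5 SRF cofactors listed, 2 were measured, MRTFA with 194 and 338 (-0.80) and MRTFB with 326 and 409 (-0.33).

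**Figure D5:**
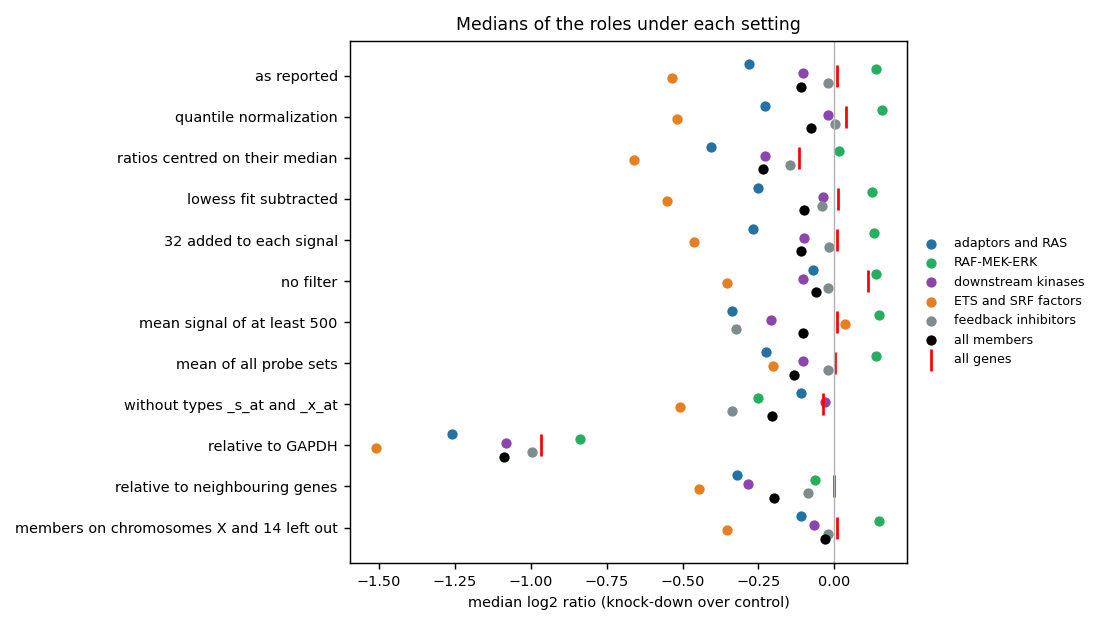
Median log2 ratio (knock-down over control) of the measured genes of each role, of all members and of all genes (red bars) under each way of processing the values. The ETS and SRF factors have the lowest median of the roles as reported (-0.53) but not with the mean of all probe sets or at a mean signal of at least 500, where 1 gene of the role is left, and all medians are shifted on the scale relative to GAPDH.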

How the data were processed

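Total RNA of L-428 cells was measured on 2 Affymetrix human expression arrays, 1 after DUSP5 knock-down and 1 with the control vector. Array scans were summarized by the authors with the MicroarraySuite algorithm in Expression Console (MAS5 in the submitters' processing notes), and the authors deposited linear signal intensity values scaled to a target of 500. The median signal was 164 on the knock-down array and 161 on the control array. That each group has 1 array limits the precision of all ratios.

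Gene symbols came from the 2016 platform annotation. Of the 22283 probe sets, 68 were controls and left out, 1043 carried several symbols and 2107 none, and these were not named. Log2 ratios were taken without further normalization. A mean signal of at least 200 and a 1.5-fold difference were required for counts. The SD between probe sets was computed from pairs of probe sets of 1 gene within bands of mean signal. Alternatives were quantile normalization, centring, subtraction of a lowess fit (span 0.3), 32 added to each signal, other filters, a 2-fold limit, the mean of all probe sets, probe set types left out and a scale relative to GAPDH. A scale relative to the 10 measured genes on either side, and leaving out members on chromosomes X and 14, were added after seeing the data.

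The members and lists were chosen with earlier results of these data known. Every member analysed was named, and of each other list at most 2 genes from either end of the ratios. Genes named as neighbours were chosen by position. Simulated data with a known large shift at high signal were used to test some of the steps. These were the SD between probe sets, the 1.5-fold limit, quantile normalization and the lowess fit. The other steps were not simulated. Python 3.11.15, numpy 2.4.6, pandas 2.3.3, statsmodels 0.14.6 and matplotlib 3.10.9 were used.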

Additional observations from a re-analysis of the deposited data

How the results depend on the processing

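The count of 10 lower member genes kept within 1.5 times under quantile normalization, centring, the lowess fit, the offset, no filter, the mean of all probe sets, the exclusion of the types _s_at and _x_at and the scale relative to neighbouring genes. With the filter raised to 500 it was 6 of 19 members, against 18.9% lower among all 4037 genes that passed. Without members on chromosomes X and 14 it was 6 of 25, against 17.7% lower among the 5855 measured genes off these chromosomes. With a 2-fold limit it was 4 of 29, and the share over all genes at that limit is not given. Each of these counts is by construction over fewer genes or under a stricter limit. The count of 2 higher genes became 1 with centring, with 32 added to each signal, at a mean signal of at least 500 and relative to neighbouring genes. The shares higher over all measured genes were then 11%, 14.2%, 15.7% and 15.5%. It became 3 with the mean of all probe sets (15.7% of all genes), 4 without a filter (24.6%) and 0 with a 2-fold limit. Relative to GAPDH, where all genes are shifted by 0.98, 26 members were lower and 0 higher, against 75.4% lower and 0.78% higher of all measured genes, with medians of -1.26 for adaptors and RAS, -0.84 for RAF-MEK-ERK, -1.08 for downstream kinases, -1.51 for ETS and SRF factors, -0.997 for inhibitors and -1.09 for all members. On that scale 24 of the 30 member probe sets above 0 fell below it, 4 of which had been at least 1.5-fold higher, those of HRAS (-0.39), RPS6KA1 (-0.24), and dim ones of MAP2K2 (-0.37) and SPRED2 (-0.38). The median of RAF-MEK-ERK was -0.25 without the types _s_at and _x_at, and that of ETS and SRF factors was 0.036 at a mean signal of at least 500, where 1 gene was left. No other median moved by more than the SD between probe sets, and under the first 4 alternatives none of the 72 probe set ratios did. No paired analysis was possible because the groups hold a single array apiece. Low signal limits ELK4, ETS1, ETV5, GAB1, NF1, RASA2 and RRAS.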
